A study of Homo sapiens with 12 samples.

Results

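The genes described here are 8 enzymes of heme synthesis, ALAS1, ALAS2, ALAD, UROS, UROD, CPOX, PPOX and FECH, chosen by name as steps of this pathway, by a rule that uses no measured value but was set with earlier results of these data known. They are 8 of the 28278 genes in the deposited count table, and all 8 were among the 15805 genes with enough counts to be tested. RNA-seq was made from K562, an established human erythroleukaemia line that can be pushed towards red-cell features. Cells were wild type (WT) or carried a knockout of HRG1 (KO), the heme transporter encoded by SLC48A1, and each genotype was left untreated or given sodium butyrate, a histone deacetylase inhibitor, at 0.75 mM. Per the labels, butyrate was given 24 h after plating and again 48 h later, and cells were collected 6 h after the last dose; the series text also names day 8 of differentiation, without saying how that day relates to these hours. Each of the 4 groups (WT untreated, WT butyrate, KO untreated, KO butyrate) had 3 libraries. The labels do not say how many knockout clones were used or whether the libraries came from separate cultures, so the p-values measure the spread between these libraries, which may be technical, and a difference between genotypes cannot be told apart from a difference between clones.

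Heme is an iron-holding porphyrin ring and the oxygen-binding group of hemoglobin. Its synthesis starts in the mitochondrion, where a 5-aminolevulinate synthase joins glycine and succinyl-CoA. ALAS1 is the form made in most tissues, and ALAS2 is the form of developing red cells. The next enzymes act in the cytosol: ALAD joins aminolevulinate molecules into porphobilinogen, UROS closes the ring as uroporphyrinogen III, and UROD removes carboxyl groups to give coproporphyrinogen. CPOX and PPOX then oxidise the ring in the mitochondrion, and FECH inserts iron. In erythroid cells several of these genes are known targets of GATA1, and ALAS2 mRNA also carries an iron-responsive element that controls its translation, which RNA levels do not show.

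The promoters of both synthases are shown because both encode the enzyme of the first step and their balance is reported below. Sequences are RefSeq's for GRCh38.p14, from 250 bases before the gene's start up to it, on the gene's strand, and capitals mark a GATA motif (the letters AGATAA or the letters AGATAG or the letters TGATAA or the letters TGATAG, on either strand, so that TTATCT stands for the first of these on the other strand).
ALAS2, chrX:55030978-55031227, minus strand: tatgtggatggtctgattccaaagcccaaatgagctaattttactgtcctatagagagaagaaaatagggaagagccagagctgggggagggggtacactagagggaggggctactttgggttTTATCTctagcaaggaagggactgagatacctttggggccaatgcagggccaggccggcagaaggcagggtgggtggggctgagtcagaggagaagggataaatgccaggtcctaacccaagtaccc
ALAS1, chr3:52197833-52198082, plus strand: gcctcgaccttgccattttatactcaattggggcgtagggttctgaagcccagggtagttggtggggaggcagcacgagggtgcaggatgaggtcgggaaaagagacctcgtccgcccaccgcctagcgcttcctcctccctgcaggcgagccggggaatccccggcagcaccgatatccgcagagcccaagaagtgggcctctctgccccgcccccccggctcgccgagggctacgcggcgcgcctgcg
The ALAS2 window held 1 GATA motif, from base -127 to base -122 before the start, and the ALAS1 window held none of these letters. Of 35116 promoter windows of the same length in the table, 22.3% held a GATA motif. ALAS2 also held the CACC-box letters CCNCNCCC at 4 positions, of which the pair starting at -167 and -165 overlap; ALAS1 held them at 2 overlapping positions, and 53.4% of all windows held them at least once. The CCAAT letters stood in both windows and in 32.0% of all windows. The antioxidant-response core TGANNNNGC stood in the ALAS2 window (35.2% of all windows) and the TATA letters TATAAA in the ALAS1 window on the opposite strand (10.7%). Neither window held the NRF1-like letters GCGCATGC (2.63% of all windows) or the CRE letters TGACGTCA (1.65%).

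Of the other members, CPOX, ALAD and PPOX had a GATA motif in a window, and 30 bases around each are given for comparison with the ALAS2 site.
ALAS2, chrX:55031087-55031116, minus strand: ctactttgggttTTATCTctagcaaggaag
CPOX, chr3:98593801-98593830, minus strand: agaaagcctcttTTATCTctcccgtccctt
CPOX, chr3:98593719-98593748, minus strand: cgcgtcggattcTTATCTcccgccccgcgc
ALAD, chr9:113401171-113401200, minus strand: ctggatgcggggAGATAGcgggcctggagg
PPOX, chr1:161166571-161166600, plus strand: agggtgtggcccTTATCTgcacccagcaga
The ALAD and PPOX motifs belong to the later of 2 listed starts, with their first base at -68 and -63, and the window before the earlier listed start of each gene held none. Both listed PPOX starts, at 161166426 and 161166646, lie inside the PPOX gene as placed below, which begins at 161165728. The bases just before that gene start were not searched. The UROD and FECH windows held none. In all, 7 of the 8 members had a promoter entry, with UROS the member without. A match of letters is a description and shows no binding.

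The libraries held 19963594 to 30348538 counts each. Values below are CPM (counts scaled to library size) corrected by TMM, edgeR's correction for library composition. A gene was called changed when its p from edgeR's quasi-likelihood test, fitted over all 12 libraries, stayed under 0.05 after Benjamini-Hochberg adjustment across the 15805 genes. SLC48A1, the knockout target, averaged 73.7 CPM in WT untreated and 67.8 CPM in WT butyrate libraries against 5.94 and 8.03 CPM in the KO libraries (log2 differences of -3.63 and -3.07, edgeR adjusted p = 1.82e-05 and 7.41e-05). All 12 erythroid markers looked for averaged at least 1 CPM in each group, and their sum, mostly globin, was 8727 to 19690 CPM in WT untreated, 29080 to 78620 in WT butyrate, 3998 to 7195 in KO untreated and 5448 to 7913 in KO butyrate libraries. The 9 megakaryocytic markers summed to 33.5 to 60.9 CPM in WT untreated, 118 to 227 in WT butyrate, 15.6 to 55.4 in KO untreated and 81.6 to 119 in KO butyrate libraries, with GP1BB and PF4 at 0 in all 12. The 8 granulocytic and monocytic markers summed to 40.6 to 60.5, 67.5 to 104, 31.7 to 108 and 156 to 181.5 CPM in the same order, and the 5 lymphoid markers, with MS4A1 at 0 in all 12, to at most 24.3 CPM. The part of these shifts in the results below was not tested. The libraries numbered 1 differed from the others of their own group in RNA28SN5, a ribosomal RNA. It took 2.30% to 5.63% of their counts against 0.673% to 2.86% in the others. Those ranges overlap across groups, but within all 4 groups it was highest in the library numbered 1.

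Samples that carried the same replicate number deviated together from their group means, though some pairs with different numbers did so as well. Each edgeR test was also run with the replicate number as a block. That value is given where it changes the call of a member. For partner genes the counts with the block are given, and only some of the genes are named. After butyrate in WT cells, 3 members rose (ALAS2, ALAD and UROS) and none fell, where 1.80% of all tested genes rose and 0.550% fell. In these bulk libraries a change in the number of cells making a transcript and a change in its amount per cell cannot be told apart. With the block, 4 members rose and 1 fell, against 5.47% and 3.14% of all genes. In KO cells 2 members rose (ALAD and UROS) and none fell, against 2.80% and 0.595% of all genes; with the block 3 rose and none fell, against 7.80% and 3.92%. The median log2 change over the 8 members was 0.76 in WT and 0.67 in KO cells, beside 0.02 and 0.00 over all tested genes. In WT cells 6 members were higher in every butyrate library than in every untreated one and 1 was lower, where 11.3% and 10.4% of all genes had no overlap in those directions. In KO cells these counts were 6 and 0 members against 12.6% and 11.8% of all genes.

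**Figure D1:**
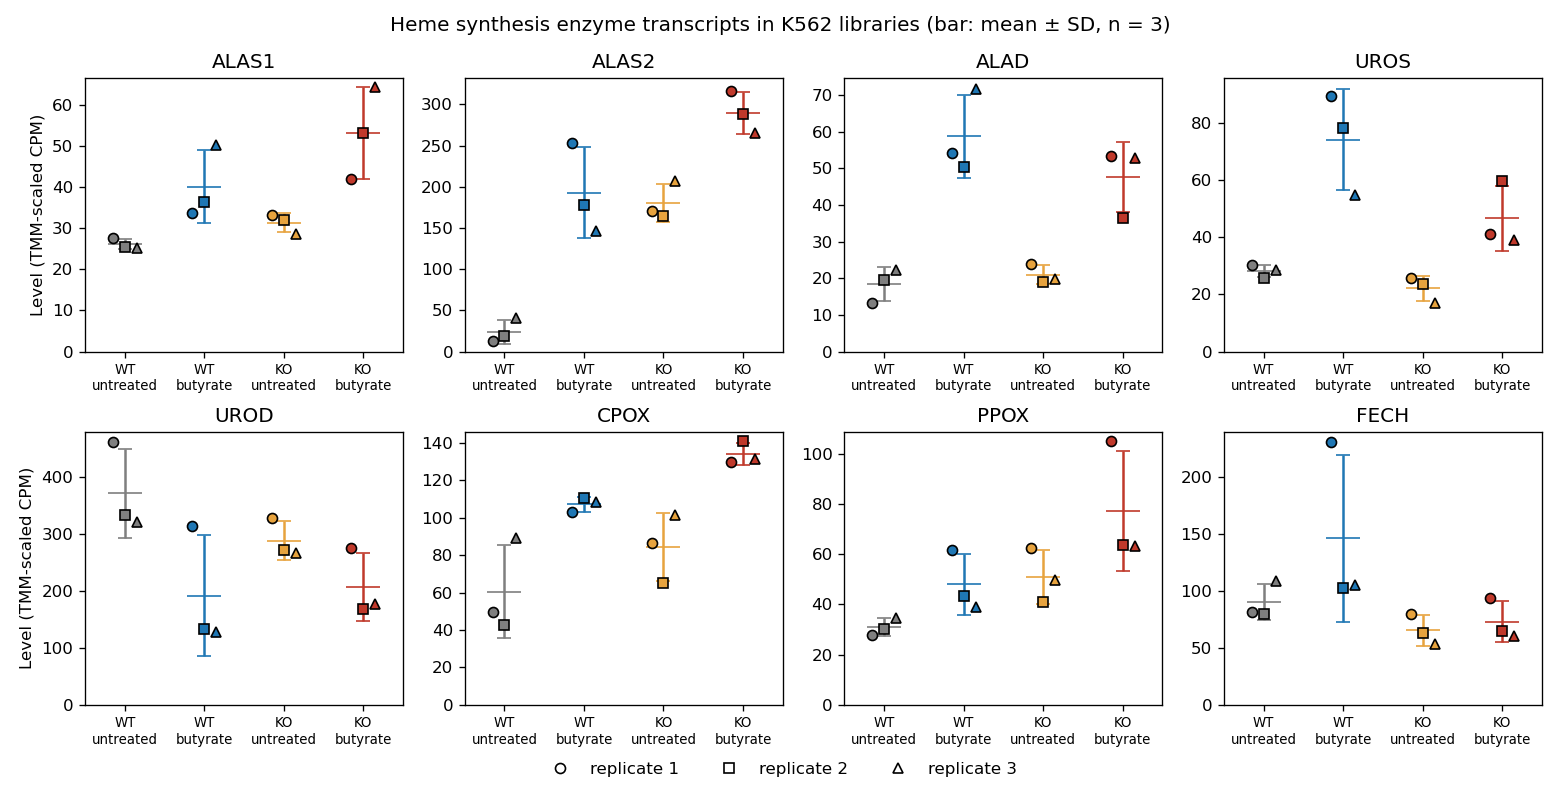
TMM-scaled CPM of the 8 heme synthesis enzymes in each of the 12 libraries, one panel per gene with its own axis from 0; points are libraries (shape gives the replicate number) and bars the mean ± SD of 3. ALAS2 is low in the 3 WT untreated libraries alone, while UROD is highest in the library numbered 1 of every group.

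ALAS2 (chrX:55009055-55030977, minus strand), the red-cell synthase, was the member with the largest ratio of its highest to its lowest library. Its levels were 13.4, 18.5 and 40.2 CPM in WT untreated libraries, 254, 178 and 147 CPM in WT butyrate, 170.5, 164 and 207 CPM in KO untreated and 316, 288 and 265 CPM in KO butyrate libraries. All 3 WT untreated libraries lay below all 9 others. Butyrate raised ALAS2 in WT cells from 24.0 ± 14.2 to 193 ± 54.9 CPM (SD, n = 3 each), an 8.02-fold rise with a log2 change of 3.00 ± 0.363 (SE) and an edgeR adjusted p of 0.00386. In KO cells ALAS2 stood at 181 ± 23.2 CPM without butyrate and 290.0 ± 25.5 CPM with it (SD, n = 3 each), groups that did not overlap, but the log2 change of 0.68 ± 0.337 (SE) did not pass edgeR's test (adjusted p = 0.289).

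Without butyrate, ALAS2 was 7.51-fold higher in KO than in WT cells, with a log2 difference of 2.91 ± 0.362 (SE) and an edgeR adjusted p of 0.000116. With butyrate the genotypes differed by 0.59 on the log2 scale, with a 95% interval from -0.14 to 1.32 and an edgeR adjusted p of 0.264. Leaving out each library in turn kept the WT butyrate change between 2.71 and 3.60 and the untreated genotype difference between 2.62 and 3.48, and both were called in 6 of 6 such fits. The untreated KO libraries that held more ALAS2 held a lower erythroid marker sum than the WT untreated ones, in ranges given above that do not overlap. Over the 514 tested X-linked genes the median log2 difference between untreated KO and WT cells was -0.26, of the opposite sign.

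The butyrate change of ALAS2 was smaller in KO than in WT cells by 2.32 on the log2 scale, as the interaction between genotype and butyrate (SE 0.482, 95% interval -3.37 to -1.28). Unadjusted, its p from edgeR was 3.71e-04, and after adjustment over all genes it was 0.244, with 0.0948 under the block and 0.00585 by DESeq2; leaving out 1 library gave edgeR adjusted p of 0.0723 to 0.687. By edgeR 0% of all tested genes passed for this interaction, and 0.0190% with the block. None of the 8 members was called by edgeR, 1 had an unadjusted p under 0.05 beside 658 of all genes, and 1, ALAS2, was called by DESeq2, which called 0.532% of all genes. The interaction estimates of the other 7 members ran from -0.54 for FECH to 0.48 for UROD, each with an edgeR adjusted p of 1.00.

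ALAS1 (chr3:52198083-52214327, plus strand), the housekeeping synthase, held 27.6, 25.5 and 25.3 CPM in WT untreated libraries and 33.6, 36.4 and 50.1 CPM in WT butyrate libraries. In KO cells it held 33.3, 32.0 and 28.7 CPM untreated and 41.9, 53.1 and 64.4 CPM with butyrate. Every butyrate library was above every untreated library of its genotype, by a log2 difference of 0.62 ± 0.212 (SE) in WT and 0.76 ± 0.212 (SE) in KO cells. Neither passed edgeR's test (adjusted p = 0.150 and 0.0709), and with the block the KO value passed (adjusted p = 0.0322) and the WT value did not (0.0787). With the libraries numbered 1 left out of every group, both passed, at 0.76 in WT (adjusted p = 0.0464) and 0.94 in KO cells (0.0194). The KO change also passed without KO butyrate replicate 1 (0.90, adjusted p = 0.0359), the 1 called of 6 fits that left out 1 library. Over those 6 fits it ran from 0.62 to 0.90, with edgeR adjusted p up to 0.209. In WT cells 0 of 6 such fits were called, at 0.42 to 0.72 with edgeR adjusted p of 0.066 to 0.433. Between genotypes ALAS1 differed by 0.26 untreated (edgeR adjusted p = 0.421) and by 0.41 with butyrate (0.211).

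The balance of both synthases was read as the ratio of ALAS2 to ALAS1 counts within a library, which does not depend on library scaling. It was 0.485, 0.724 and 1.59 in WT untreated libraries, so ALAS1 had the more counts in 2 of 3. The ratio was 7.56, 4.90 and 2.93 in WT butyrate, 5.12, 5.13 and 7.23 in KO untreated, and 7.55, 5.42 and 4.12 in KO butyrate libraries. The geometric means were 0.823, 4.77, 5.75 and 5.53 in that order. Butyrate moved the ratio 5.79-fold in WT cells with no overlap (two-sided exact permutation p = 0.1, the smallest that 3 against 3 can give) and 0.961-fold in KO cells with overlap (exact permutation p = 1.0). KO cells exceeded WT cells 6.98-fold untreated (exact permutation p = 0.1) and 1.16-fold with butyrate (exact permutation p = 0.7). Without the libraries numbered 1 the WT butyrate difference in the ratio was 1.82 rather than 2.53 on the log2 scale.

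**Figure D2:**
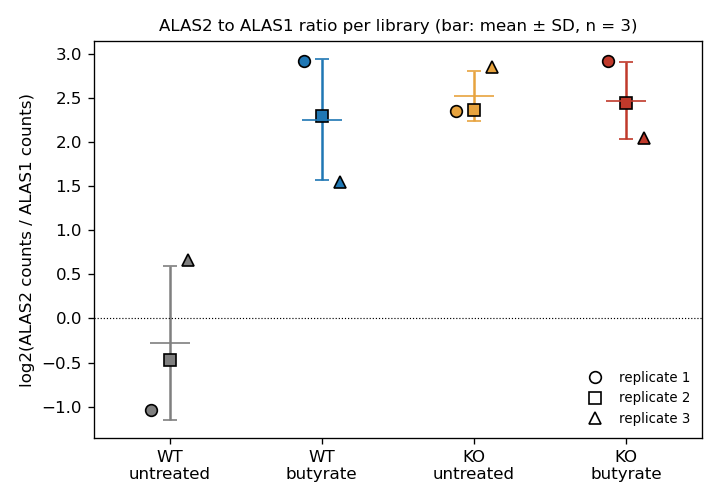
log2 of ALAS2 counts over ALAS1 counts in each library, by group; bars are the mean ± SD of 3 libraries and shape gives the replicate number. The WT untreated group has a geometric mean ratio of 0.823, and the other groups lie at 4.77, 5.75 and 5.53.

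ALAD (chr9:113386312-113401284, minus strand), which makes porphobilinogen, rose with butyrate in both genotypes. WT libraries held 13.3, 19.7 and 22.4 CPM untreated and 54.2, 50.3 and 71.7 CPM with butyrate, and KO libraries 23.9, 19.0 and 19.9 CPM untreated and 53.4, 36.5 and 52.9 CPM with butyrate. The treated and untreated ranges were apart in each genotype. The WT rise was 3.19-fold (log2 1.67 ± 0.250 SE, edgeR adjusted p = 0.00721) and was called in 6 of 6 fits that left out 1 library. The KO rise was 2.27-fold (log2 1.18 ± 0.247 SE, edgeR adjusted p = 0.0262). It was called in 2 of 6 such fits, with adjusted p between 0.0714 and 0.135 without KO butyrate replicate 3 or any one of the KO untreated replicates. Between genotypes the ALAD ranges overlapped in both conditions, with log2 differences of 0.18 untreated (edgeR adjusted p = 0.652) and -0.30 with butyrate (0.438).

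UROS (chr10:125784980-125823258, minus strand), which closes the ring, held 30.1, 25.8 and 28.4 CPM in WT untreated and 89.6, 78.2 and 54.9 CPM in WT butyrate libraries. In KO cells it held 25.7, 23.6 and 17.1 CPM untreated and 41.3, 59.7 and 38.9 CPM with butyrate. Here too no treated library fell into the untreated range of its genotype. The rises were 2.64-fold in WT (log2 1.40 ± 0.246 SE, edgeR adjusted p = 0.0156) and 2.11-fold in KO cells (log2 1.08 ± 0.245 SE, edgeR adjusted p = 0.0334). Each was called in 2 of 6 fits that left out 1 library. The WT call was lost without WT butyrate replicate 2 or any one of the WT untreated replicates (adjusted p up to 0.0808), and the KO call without KO butyrate replicate 2 or any one of the KO untreated replicates (up to 0.156). A fit on the groups compared alone also lost both calls, at adjusted p = 0.0585 and 0.0549.

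Between genotypes UROS was 0.67 lower on the log2 scale in KO than in WT cells under butyrate, with an edgeR adjusted p of 0.0736 and of 0.0262 with the block. It passed without KO butyrate replicate 2 (-0.91, adjusted p = 0.0380) and without WT butyrate replicate 3 (-0.87, 0.0370), and stood at -0.45 without the libraries numbered 1 (0.253) and at -0.52 without WT butyrate replicate 1 (0.164). Untreated, every KO library lay below every WT library, but the log2 difference of -0.35 did not pass (edgeR adjusted p = 0.343).

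UROD (chr1:45012254-45015575, plus strand), which decarboxylates the ring, was the member whose estimate under butyrate was below 0. It held 461, 333 and 320.0 CPM in WT untreated and 314, 133 and 128 CPM in WT butyrate libraries, and 327.5, 271 and 266 CPM in KO untreated and 276, 167 and 177 CPM in KO butyrate libraries. In each of the 4 groups the library numbered 1, which also had the highest RNA28SN5 share, was the highest; the part of that share was not tested. In WT cells the log2 difference was -0.95 ± 0.334 (SE), with an edgeR adjusted p of 0.155. With the block it fell by 1.04 (adjusted p = 0.00866), without the libraries numbered 1 by 1.34 (0.00251), and without WT butyrate replicate 1 alone by 1.52 (0.00752). That last fit was the 1 called of 6 that left out 1 library. Those 6 ran from -1.52 to -0.73, with edgeR adjusted p up to 0.442. The WT fall was also not called by DESeq2 (adjusted p = 0.0869) or by edgeR on the compared groups only (0.28). In KO cells the difference was -0.48 ± 0.332 (SE), not called (edgeR adjusted p = 0.460, and 0.0981 with the block), and -0.66 without the libraries numbered 1 (0.0355). Leaving out single libraries gave -0.75 to -0.34 there, none of them called. Between genotypes UROD differed by -0.37 untreated (edgeR adjusted p = 0.481) and by 0.11 with butyrate (0.869).

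CPOX (chr3:98570488-98593611, minus strand), the first of the mitochondrial oxidases, held 49.8, 42.7 and 89.1 CPM in WT untreated and 103, 111 and 108 CPM in WT butyrate libraries. KO libraries held 86.7, 65.2 and 101.5 CPM untreated and 130, 141 and 131 CPM with butyrate. All treated libraries were above the untreated ones of their genotype, and WT untreated replicate 3 was well above its group's other libraries. The log2 difference was 0.82 ± 0.256 (SE) in WT, not called by edgeR (adjusted p = 0.116), called with the block (0.0286), and 1.22 without WT untreated replicate 3 (0.0301) but 0.62 without WT untreated replicate 2 (0.339). In KO cells it was 0.67 ± 0.255 (SE), with an edgeR adjusted p of 0.169 and of 0.0557 with the block. KO exceeded WT cells by 0.48 untreated (edgeR adjusted p = 0.207), and by 0.32 with butyrate (0.432). The untreated value was 0.85 without WT untreated replicate 3 (0.0208), 0.28 without WT untreated replicate 2 (0.524) and 0.29 without KO untreated replicate 3 (0.532). The principal CPOX transcript shares 163 bases, 5.8% of its length, with AC021660.3 on the same strand. How reads there were counted is not given in the sources used here.

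PPOX (chr1:161165728-161178013, plus strand), which makes protoporphyrin, held 27.6, 30.2 and 34.7 CPM in WT untreated and 61.8, 43.2 and 38.9 CPM in WT butyrate libraries. In KO cells it held 62.4, 40.8 and 49.5 CPM untreated and 105, 63.7 and 63.4 CPM with butyrate. Every KO library was above every WT library of the same treatment, by a log2 difference of 0.72 ± 0.258 (SE) untreated and 0.69 ± 0.257 (SE) with butyrate. These did not pass edgeR's test (adjusted p = 0.0625 and 0.0821) and passed with the block (0.0224 and 0.0245). With library size as the only scaling both passed as well (0.0465 and 0.0268), and the treated difference passed at 0.90 without WT butyrate replicate 1 (0.0286) but was 0.41 without KO butyrate replicate 1 (0.311). Without the libraries numbered 1 the untreated difference was 0.46 (0.107) and the treated one 0.61 (0.0425). Butyrate differences were 0.64 in WT and 0.60 in KO cells, not called (edgeR adjusted p = 0.216 and 0.215). The exons of all PPOX transcripts share 1118 bases with B4GALT3 on the opposite strand, 24.3% of their length, though the principal PPOX transcript shares 0. Whether the counting used strand is not given in the sources used here, so reads there may be split; B4GALT3 itself was not called in any of these 4 comparisons, with log2 differences from -0.20 to 0.28.

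FECH (chr18:57544377-57586702, minus strand), which inserts the iron, held 81.5, 80.0 and 108 CPM in WT untreated, 231, 102.5 and 105 CPM in WT butyrate, 79.9, 62.8 and 53.3 CPM in KO untreated and 93.8, 64.8 and 60.2 CPM in KO butyrate libraries. WT butyrate replicate 1 stood far above every other library. FECH was lower in KO than in WT cells under butyrate, by a log2 difference of -1.002 ± 0.315 (SE) with no overlap and an edgeR adjusted p of 0.0422. Without WT butyrate replicate 1 the difference was -0.52 and was not called (adjusted p = 0.140). The call was also lost without KO butyrate replicate 2 (0.125) or 3 (0.122) and in a fit on both treated groups alone (0.121), while it held without the libraries numbered 1 in every group, at -0.75 (0.0212). Untreated, the difference was -0.46 ± 0.313 (SE) with no overlap, not called (edgeR adjusted p = 0.328) and -0.72 without the libraries numbered 1 (0.0247). Butyrate gave overlapping FECH ranges in both genotypes, with log2 differences of 0.70 in WT (edgeR adjusted p = 0.264, and 0.20 without WT butyrate replicate 1) and 0.16 in KO cells (0.830).

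**Figure D3:**
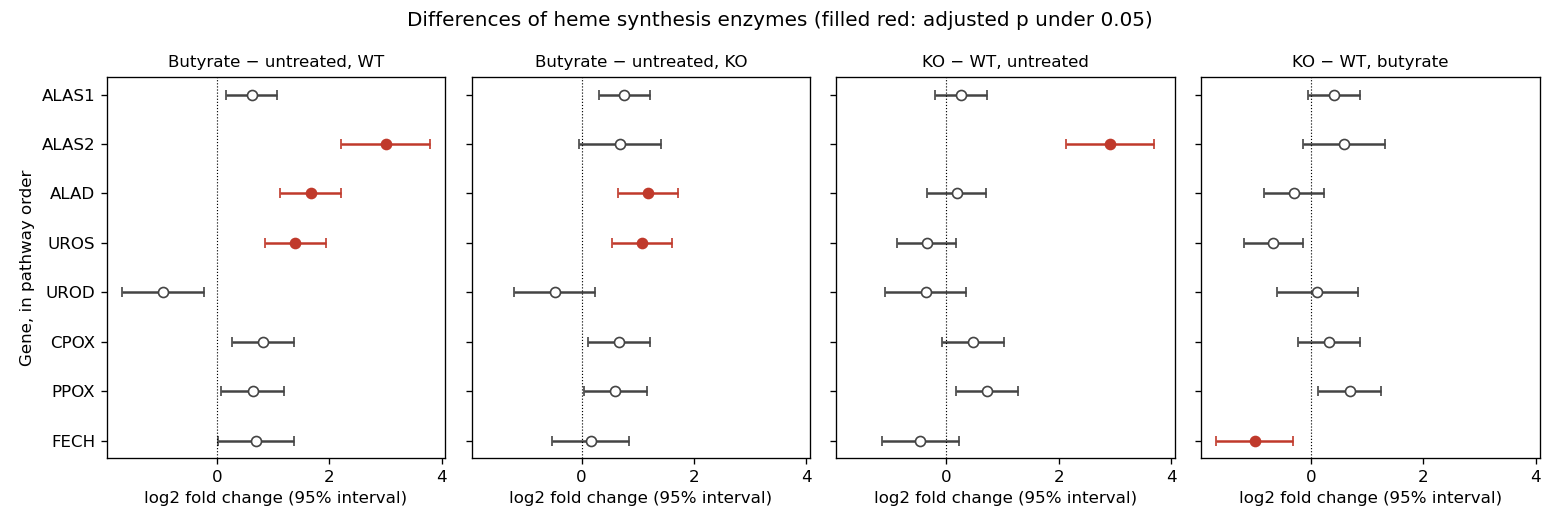
log2 fold changes of the 8 enzymes in pathway order, with 95% intervals, for butyrate in each genotype and for KO against WT in each condition; filled red points passed edgeR's test. ALAS2, ALAD and UROS rose with butyrate in WT cells, ALAD and UROS in KO cells, and the genotype calls were ALAS2 untreated and FECH with butyrate.

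Between untreated genotypes 1 member was called higher (ALAS2) and none lower, where 11.7% of all genes were higher and 10.9% lower. With the block 2 were higher, against 16.9%, and none was lower, against 16.1%. With butyrate none was higher and 1 was lower (FECH), where 10.1% and 8.89% of all genes were called; with the block 1 was higher (PPOX) and 2 were lower (UROS and FECH), against 15.6% and 13.6%. Ranges did not overlap for 3 members higher and 2 lower untreated, where 22.2% and 20.2% of all genes had none, and for 3 higher and 1 lower with butyrate, against 17.9% and 16.0%. The members' median log2 genotype difference was 0.22 in both conditions, beside 0.02 untreated and -0.002 with butyrate over all genes. The 2 genotype comparisons use different libraries, but each shares its libraries with the butyrate comparisons.

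Genes of some chromosomes differed between genotypes as a body, and the members on them are given beside those values. On chromosome 18, which holds FECH, the median log2 difference of 189 tested genes was -0.52 untreated and -0.61 with butyrate, and 72.0% and 76.7% of those genes were below 0. FECH itself stood at -0.46 and -1.002. On chromosome 3, which holds ALAS1 and CPOX, the median of 826 tested genes was 0.45 in both conditions; ALAS1 stood at 0.26 and 0.41 and CPOX at 0.48 and 0.32. The chromosomes of ALAD, UROS, UROD and PPOX had medians between -0.14 and 0.10. The part of these chromosome-wide values in the FECH difference was not tested.

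**Figure D4:**
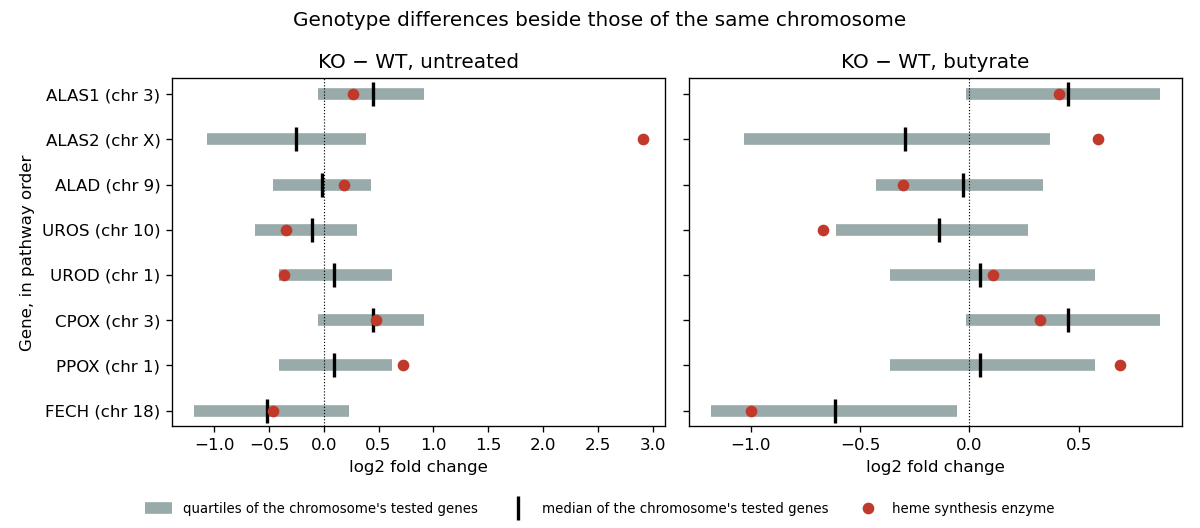
log2 difference of KO against WT for each enzyme (red point) beside the median (black mark) and quartiles (grey bar) of all tested genes on its chromosome, untreated and with butyrate. ALAS2 lies far above its chromosome's quartiles untreated, at 2.91 beside a median of -0.26, while FECH lies at -0.46 and -1.002 beside medians of -0.52 and -0.61.

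Levels of different genes were compared per kilobase of the principal transcript (CPM per kb). UROD had the highest group mean in all 4 groups, at 286, 147, 222 and 159 CPM per kb in WT untreated, WT butyrate, KO untreated and KO butyrate libraries. ALAS2 held 11.8, 95.2, 89.1 and 143.0 CPM per kb in the same order. In WT untreated libraries UROD stood clear of FECH, the next member, and FECH, CPOX, UROS, PPOX, ALAS2 and ALAS1 followed with each neighbour's range overlapping the next; ALAD was lowest and apart from ALAS1. ALAS2 was next to UROD in the other 3 groups; the ranges of both overlapped in WT butyrate and KO butyrate libraries and were apart in KO untreated ones.

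As a share of the summed level of the 8 enzymes per kb, UROD made up 71.6% ± 7.03 (SD, n = 3) in WT untreated and 32.4% ± 7.14 in WT butyrate libraries. In KO libraries its share was 52.4% ± 2.80 untreated and 32.4% ± 4.74 with butyrate. The ALAS2 share was 3.06% ± 1.90 in WT untreated, 22.0% ± 1.53 in WT butyrate, 21.2% ± 3.22 in KO untreated and 29.7% ± 1.91 in KO butyrate libraries. The sum itself was 397 ± 51.0, 435 ± 139, 423 ± 37.7 and 484 ± 69.1 CPM per kb, with overlapping ranges between 342 and 595 CPM per kb. The order depends on the length used: divided by the union of all annotated exons, ALAS2 at 90.5 and 135.9 CPM per kb exceeded UROD at 65.9 and 71.1 CPM per kb in WT butyrate and KO butyrate libraries.

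**Figure D5:**
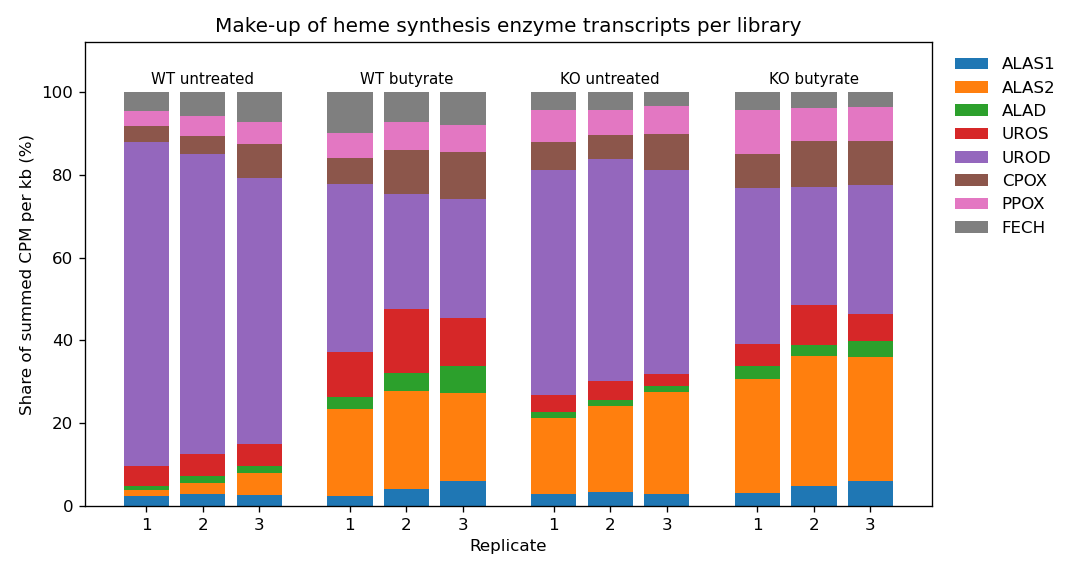
Share of each enzyme in the summed CPM per kb of the 8 enzymes, one stacked bar per library, in percent. UROD takes a mean of 71.6% in WT untreated libraries and 32.4% in both butyrate groups, and ALAS2 3.06% in WT untreated and 21.2% to 29.7% elsewhere.

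Within groups, the members' deviations of log2 CPM from their group means were compared over the 12 libraries, as a description. Named here are the pairs with the largest coefficients, of either sign. UROD moved with FECH (Pearson r = 0.831) and with PPOX (0.721), and PPOX with FECH (0.847). The library numbered 1, with the highest RNA28SN5 share of its group, was the highest for UROD in 4 of 4 groups and for FECH, PPOX and UROS in 3. UROS had lower coefficients, at 0.368 with UROD, 0.192 with PPOX and 0.46 with FECH. The part of the RNA28SN5 share in these coefficients was not tested. ALAS2 moved with CPOX (0.713), and ALAS1 went against PPOX (-0.687).

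Genes whose log2 CPM followed a member most closely over all 12 libraries, group differences included, were picked by the highest Pearson correlation. For ALAS2 these were CD7 (0.969), DPF3 (0.957) and RHCE (0.956), and for ALAS1 KLHL25 (0.938), ZNF703 (0.936) and ADAM33 (0.927). For ALAD they were CDH24 (0.941), RETREG3 (0.939) and JUN (0.939). RAB9A (0.937) and LAMTOR3 (0.927) were among the top 3 for FECH.

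Around the enzymes, 59 partner genes of heme synthesis were listed, of which 57 were tested. After butyrate 3 rose in WT and 2 in KO cells by edgeR's test, and none fell, with median log2 changes over the 57 of -0.07 and -0.12. Of all tested genes 1.80% rose in WT and 2.80% in KO cells, and 0.550% and 0.595% fell. SLC25A37, mitoferrin 1, which brings iron into erythroid mitochondria, rose from 290 ± 46.0 to 738 ± 149 CPM in WT cells (SD, n = 3, log2 1.35, edgeR adjusted p = 0.0126) and from 203 ± 36.8 to 410 ± 68.1 CPM in KO cells (log2 1.02, edgeR adjusted p = 0.0303). ZFPM1, the GATA1 cofactor FOG1, rose in both as well, by 1.38 in WT (edgeR adjusted p = 0.0393) and 1.49 in KO cells (0.0262). SLC25A39, a mitochondrial glutathione carrier, rose by 0.83 in WT cells (edgeR adjusted p = 0.0470). With the block 3 partner genes rose and 4 fell in WT, and 3 rose and 5 fell in KO cells, where 5.47% of all genes rose and 3.14% fell in WT and 7.80% and 3.92% in KO cells.

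Between genotypes 6 partner genes were higher and 8 lower in untreated KO cells, and 6 were higher and 10 lower with butyrate, with medians of -0.03 and -0.12. Of all tested genes 11.7% were higher and 10.9% lower untreated, and 10.1% and 8.89% with butyrate. With the block 10 partner genes were higher and 11 lower untreated, against 16.9% and 16.1% of all genes, and 9 and 13 with butyrate, against 15.6% and 13.6%. Among the 9 genes that supply glycine and succinyl-CoA, 3 were higher and 2 lower untreated. SUCLG2 and SUCLA2, subunits of the succinyl-CoA synthetases, were higher in KO cells, with SUCLG2 at 22.9 ± 2.87 CPM in WT and 77.7 ± 1.92 CPM in KO untreated libraries (SD, n = 3, log2 1.76, edgeR adjusted p = 8.96e-05) and SUCLA2 at 31.1 ± 4.77 and 101 ± 20.6 CPM (log2 1.70, edgeR adjusted p = 0.000269). With butyrate both were again higher, by 1.81 and 1.40. DLST, a subunit of the 2-oxoglutarate dehydrogenase complex, was higher by 1.10 untreated (edgeR adjusted p = 0.000423) and 0.68 with butyrate (0.0109), and DLD, another of its subunits, was lower, by -0.56 untreated (0.0291) and -0.65 with butyrate (0.0170). OGDH, a further subunit named after its values were seen, was lower as well, by -0.86 untreated (edgeR adjusted p = 0.00830) and -0.61 with butyrate (0.0492). Values of whole chromosomes, some of which differed between genotypes as given above, were set beside the 8 members alone. Their part in the genotype differences of partner genes, here and below, was not tested.

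Of the 3 tested genes of heme breakdown, 2 were lower in KO cells in both conditions, where 10.9% and 8.89% of all tested genes were lower. BLVRB, a biliverdin and flavin reductase, was at 437 ± 48.9 CPM in WT and 123 ± 33.5 CPM in KO untreated libraries (SD, n = 3, log2 -1.83, edgeR adjusted p = 0.000335), and with butyrate the log2 difference was -1.46 (0.00191). BLVRA, the main biliverdin reductase, differed by -1.58 untreated (edgeR adjusted p = 0.00349) and by -0.999 with butyrate (0.0423). Among 11 tested regulators of the synthase genes, 3 were called lower in KO cells in each condition and none higher. Of all tested genes 10.9% were lower untreated and 8.89% with butyrate, and 11.7% and 10.1% were higher. With the block 6 regulators were lower untreated and 5 with butyrate, against 16.1% and 13.6% of all genes. In each condition 1 was higher, against 16.9% and 15.6%. That gene was LMO2, a bridging protein of the same complexes as LDB1 (block adjusted p = 0.0236 and 0.0491 by edgeR). GATA1, itself a regulator of erythroid genes, was among those called lower in both conditions with the block alone (0.0199 and 0.0274), and both genes are named here after their values were seen. BACH1, a heme-binding repressor, differed by -0.82 untreated and -0.84 with butyrate (edgeR adjusted p = 0.00642 and 0.00650). LDB1, a cofactor that bridges GATA1 complexes, differed by -0.89 and -0.69 (edgeR adjusted p = 0.00404 and 0.0199).

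In iron handling, SLC25A37 was lower in KO than in WT cells with butyrate, by a log2 difference of -0.85 (edgeR adjusted p = 0.0185). FDXR, ferredoxin reductase, was lower untreated (log2 -1.65, edgeR adjusted p = 0.00142) and with butyrate (-0.91, 0.0424), and LYRM4, a partner of the cysteine desulfurase, was higher with butyrate (0.80, edgeR adjusted p = 0.0252). Of the FLVCR transporters, FLVCR1 was higher in untreated KO cells (0.80, edgeR adjusted p = 0.0322). FLVCR2 was called higher in KO cells in both conditions from very low levels, at 0.0309 CPM in WT and 0.791 CPM in KO untreated libraries and 0.140 and 3.38 CPM with butyrate. It had enough counts to be tested through its KO libraries alone, so its calls, included in the counts above, are not read as a result. None of the 57 tested partner genes was called for the interaction of genotype and butyrate by edgeR, and 0 had an unadjusted p under 0.05.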

How the data were processed

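RNA-seq was made from TRIzol-extracted total RNA of 12 K562 libraries in 4 groups of 3, per the labels' protocols. The authors deposited 1 table of raw counts per gene. FastQC 0.12.1, STAR 2.7.11b and the hg38 build are named in the submitters' processing notes; the counting tool, annotation and strand setting are not given in the sources used here. All columns matched a sample and 0 were left out. Counts were analysed in R 4.3.3 with edgeR 4.0.16 (TMM, filterByExpr with a minimum count of 10, quasi-likelihood F-test over 15805 genes, adjusted p under 0.05), with DESeq2 1.42.0 as an alternative. Other alternatives were size factors, library size alone, 2 other filters, the compared groups only, single libraries or all libraries numbered 1 left out, and the replicate block. The test was run on simulated counts that had less spread than these data and no replicate effect. That run does not measure its error rate or power here. Depth was 19963594 to 30348538 counts per library, and no pair of replicates agreed within sampling noise.

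Within each comparison, deviations of same-numbered libraries from their group means correlated at r = 0.147 to 0.595, all over 0.1, so the numbers were taken to pair the libraries. Pairs with different numbers ran from -0.512 to 0.343. The highest, WT butyrate replicate 2 with KO butyrate replicate 3, exceeded the 0.315 of the treated libraries numbered 2. The values therefore do not settle the pairing of replicates 2 and 3, and calls made with the block alone rest on it. The pairing comes from the data and the shared numbers, since the labels do not explain them. All 8 members are named; partner genes were named when called, at most 5 per direction and comparison by smallest adjusted p, and 3 genes most correlated with ALAS1, ALAS2, ALAD and FECH. Members and lists were chosen with earlier results of these data known. The marker and partner lists share TFRC, GATA1 and KLF1. Transcript lengths came from GENCODE v29 and promoters from RefSeq GRCh38.p14; 96.0% of tested genes had a chromosome. Some results for single genes of the pathway are not reported here.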

Additional observations from a re-analysis of the deposited data

How the results depend on the processing

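The count of members called changed by over 1.5 times under several alternatives. For butyrate in WT cells it was 5 rather than 3 with the replicate block and with the libraries numbered 1 left out. For butyrate in KO cells (2) it was 1 in a fit on the compared groups only and 4 without the libraries numbered 1, and leaving out 1 library gave 0 to 3. For untreated KO against WT (1) it was 2 with the compared groups only, with library size alone, without the libraries numbered 1 and with the replicate block, and 1 to 2 leaving out 1 library. For treated KO against WT (1) it was 0 with the compared groups only, 2 with library size alone or without the libraries numbered 1, 3 with the replicate block, and 0 to 2 leaving out 1 library. For the interaction (0) it was 1 by DESeq2. The ALAS2 to ALAS1 log2 ratio after butyrate in WT cells was 1.82 without the libraries numbered 1. Leaving out 1 library turned the sign of small uncalled values: FECH with butyrate in KO cells (-0.067 to 0.32), ALAD between untreated genotypes (-0.0043 to 0.32), UROD between treated genotypes (-0.15 to 0.65), and the interactions of ALAS1 (-0.0034 to 0.34), CPOX (-0.55 to 0.040) and PPOX (-0.32 to 0.21). Without the libraries numbered 1, ALAD between untreated genotypes was -0.13 and the PPOX interaction 0.15, and with library size alone the PPOX interaction was 0.11. The cause was not tested. Setting each single member's value beside its alternatives, 541 kept direction and side of the threshold, 25 gained a call, 18 lost one and 16 changed sign. Partner genes called after butyrate ranged from 0 with the compared groups only to 7 with the block or DESeq2 in WT cells (0 to 7 leaving out 1 library), and were 2 in KO cells, 8 with the block or DESeq2, 10 without the libraries numbered 1 and 0 to 2 leaving out 1 library; for untreated KO against WT they were 14, 21 with the block and 11 to 13 leaving out 1 library; for treated KO against WT they were 16, 22 with the block, 7 with the compared groups only, and 8 to 14 leaving out 1 library (8 without WT butyrate replicate 2; 10, 9 and 9 without KO butyrate replicates 1, 2 and 3). With 3 libraries a group and a common biological coefficient of variation of 0.384, the number of libraries limits the precision.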
